A study of Homo sapiens with 6 samples.

Results

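The transcript levels of HSF1 and of 9 cytosolic heat shock protein genes were followed in an acute myeloid leukemia cell line. The treatment was a compound made to degrade METTL3, the catalytic subunit of the m6A RNA methyltransferase. The 10 genes were HSF1, HSPA1A, HSPA1B, HSPA8, HSPH1, DNAJB1, HSPB1, HSP90AA1, HSP90AB1 and BAG3. They were chosen by symbol as the heat shock transcription factor and the main cytosolic chaperones, with earlier results of these data known. All 10 were found among the 56305 genes of the count data. The cells were MOLM13, which carry an internal tandem duplication of FLT3. They were kept for 24 h either with the solvent DMSO (3 libraries) or with 1 μM ZW27941 (3 libraries), a PROTAC that brings METTL3 to the VHL ubiquitin ligase. All 6 libraries therefore came from 1 cell line, 1 dose and 1 time, and the labels do not say whether they came from separate cultures, so the p-values below measure only the spread between these libraries.

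HSF1 is the transcription factor of the heat shock response. In unstressed cells it is held inactive by chaperones, among them HSP70 and HSP90. When misfolded proteins occupy those chaperones, HSF1 is released, forms trimers and binds heat shock elements, which are arrays of inverted GAA units in the promoters of chaperone genes. The HSP70 proteins HSPA8, HSPA1A and HSPA1B fold clients in cycles of ATP hydrolysis. J-domain proteins such as DNAJB1 start the cycle, and nucleotide exchange factors such as HSPH1 and BAG3 end it. HSP90 proteins mature kinases and steroid receptors, and HSPB1 is a small heat shock protein that holds unfolded proteins without ATP. FLT3 with an internal tandem duplication is itself known as an HSP90 client.

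Because HSF1 acts through heat shock elements, the promoters of the genes were read from RefSeq (GRCh38.p14), from 250 bases before to 50 after each start site. The table held a promoter for 9 of the 10 genes, HSF1 not among them. Matches to 3 units (GAANNTTC followed after 2 further bases by GAA, or the reverse complement of this, so both strands) were searched first, and 172 of 35116 promoters (0.49%) held one. Counted by gene, over any of its promoters, 166 of 27305 gene symbols (0.608%) had one. Promoters of HSPA8, HSP90AA1 and HSP90AB1, 3 of the 9 genes, were among the promoters with a match. Their 5 matches are shown because they carry the full array. Each is written 5′ to 3′ on the strand of its gene, with the match in capitals. The window of HSPA8 at −230 lies at chr11:123062346-123062374 and the one at −55 at chr11:123062171-123062199, both on the minus strand. That of HSP90AA1 at −88 lies at chr14:102087112-102087140 on the minus strand. Those of HSP90AB1 at −165 and −112 lie at chr6:44247770-44247798 and chr6:44247823-44247851 on the plus strand. Positions count from the RefSeq start site to the first base of the match. The HSPA8 window at −55 and the HSP90AA1 window lie within exons of the GENCODE v29 annotation over their whole length of 29 bases, and the other 3 windows lie outside exons.
HSPA8, −230: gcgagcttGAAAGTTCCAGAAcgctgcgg
HSPA8, −55: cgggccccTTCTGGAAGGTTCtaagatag
HSP90AA1, −88: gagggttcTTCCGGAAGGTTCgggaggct
HSP90AB1, −165: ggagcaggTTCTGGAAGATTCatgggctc
HSP90AB1, −112: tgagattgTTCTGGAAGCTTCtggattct

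A single inverted pair of units (GAANNTTC or TTCNNGAA, each its own reverse complement, and each contained in the 3-unit pattern) was found in 4737 of the 35116 promoters (13.5%). Counted by gene, over any of its promoters, it was found for 4417 of 27305 gene symbols (16.2%). It was found for 7 of the 9 genes, adding HSPA1A, HSPA1B, DNAJB1 and HSPB1. The matches that lie wholly before a start site are shown for the genes that had no match to 3 units, again on the strand of the gene and with the match in capitals. For HSPH1 and BAG3 these letters were not in the window searched, which says nothing of other arrangements or positions. The HSPA1A and HSPA1B windows, at chr6:31815426-31815455 and chr6:31827622-31827651 on the plus strand, differ at 1 of 30 positions. The DNAJB1 windows lie on the minus strand at chr19:14518456-14518485 and chr19:14518426-14518455, and the HSPB1 window at chr7:76302480-76302509 on the plus strand. None of these 5 windows overlaps an exon. A further match for DNAJB1, just after the start site of another of its promoters (chr19:14517888-14518187, minus strand), is not shown. A match is a description of the letters and not a measurement of HSF1 binding.
HSPA1A, −106: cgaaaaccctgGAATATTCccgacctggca
HSPA1B, −105: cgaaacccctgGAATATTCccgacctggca
DNAJB1, −77: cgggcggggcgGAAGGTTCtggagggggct
DNAJB1, −47: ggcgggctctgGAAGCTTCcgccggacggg
HSPB1, −182: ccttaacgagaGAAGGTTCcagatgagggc

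The libraries held between 143454176 and 178744976 counts on genes. After edgeR's filter on low counts 20399 genes were tested, and the biological coefficient of variation was 3.11%. All 8 markers of the myeloid leukemia line (PTPRC, CD33, SPI1, MPO, LYZ, FLT3, HOXA9 and MEIS1) were present, at mean levels of 46.3 to 1061 CPM (counts scaled to a common library total with TMM factors). Their summed level was 2381 to 2456 CPM in DMSO and 2631 to 2697 CPM on ZW27941. LYZ made up most of this difference, with a mean of 963 CPM in DMSO and 1160 CPM on ZW27941. PTPRC, CD33, SPI1 and MPO also had higher means on ZW27941, and FLT3, HOXA9 and MEIS1 had lower means. The 7 markers of T cells, B cells, red cells, liver and epithelium summed to at most 1.06 CPM in any library, with HBB at 0. The METTL3 transcript was at 120 to 122 CPM in DMSO and 119 to 128 CPM on ZW27941, and since the compound acts on the protein, this level does not check the labels. ZW27941 replicate 3 stood apart in the reads that aligned to several places, which made up 5.25% of its reads against 3.63% to 4.07% in the other libraries. Its gene counts also differed most from those of its group. The chi-square per degree of freedom between libraries was 11.5 and 7.78 for its pairs, and 4.33 to 5.13 for the other pairs within a group. The part of this library, and of the marker difference, in the results was not tested, and values without the library are given where a call rested on it.

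On ZW27941 the constitutive HSP70 gene HSPA8, its cofactors HSPH1, DNAJB1 and BAG3, and HSF1 rose, while the inducible HSP70 genes, the HSP90 genes and HSPB1 did not pass the test in either direction. Among the genes that passed, HSPH1 rose the most, by 15.1%, followed by BAG3, HSPA8, DNAJB1 and, by 6.0%, HSF1. In edgeR's quasi-likelihood test, with p-values adjusted by Benjamini and Hochberg's method over all genes tested, 5 of the 10 genes were higher at an adjusted p under 0.05 and 0 were lower. Over all genes tested, 16.3% were called higher and 13.8% lower by the same rule, and 30.1% in either direction. These shares were not matched for level, and the genes tested include some of low count, where small changes are harder to detect. At an unadjusted p under 0.05, 7 of the 10 were higher and 1 was lower, and DESeq2 called 5 higher and 1 lower. With upper quartile normalization, which lowered the median log2 fold change of all genes to −0.025, 4 were higher and 2 lower. The libraries of the treatments did not overlap for 8 genes, 7 higher and 1 lower, where 41.6% of all genes did not overlap (21.7% higher and 19.9% lower). The median log2 fold change of the 10 genes was 0.11, that of all genes tested −0.0019, and 0 of the 10 changed by more than 1 on the log2 scale.

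**Figure D1:**
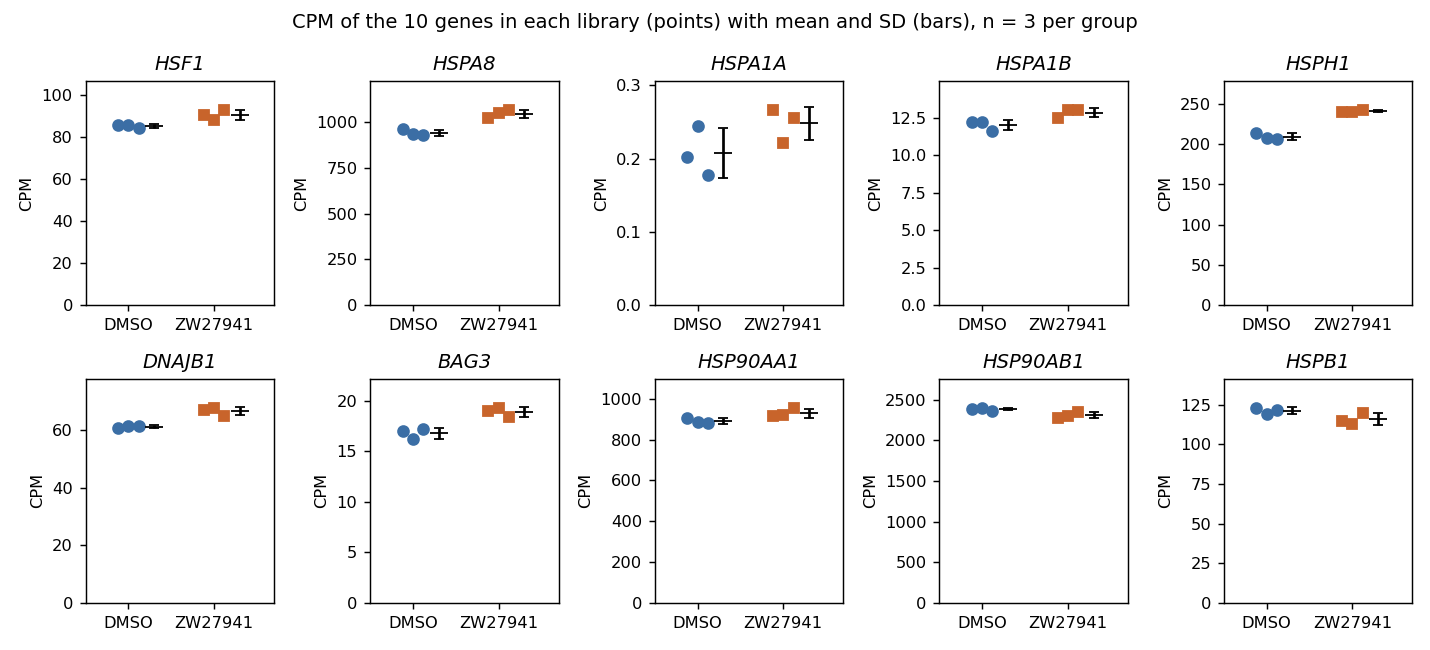
Level of each of the 10 genes in each library, in CPM on axes that start at 0, with circles for DMSO, squares for ZW27941 and a bar beside each group for its mean and SD (n = 3 per group). HSPH1 sits at 206 to 214 CPM in DMSO and 240 to 242 CPM on ZW27941, while the HSPA1A and HSPB1 points of the treatments overlap.

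**Figure D2:**
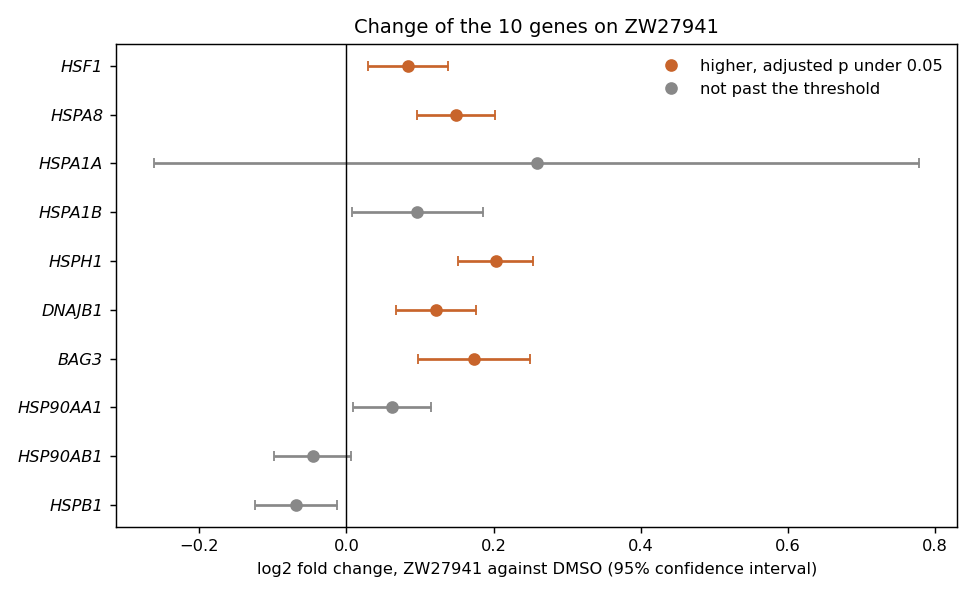
Log2 fold change of each gene on ZW27941 against DMSO from edgeR, with bars for the 95% confidence interval, and colour for an adjusted p under 0.05. HSPH1, BAG3, HSPA8, DNAJB1 and HSF1 lie above 0 with intervals clear of it. The intervals of HSPA1B and HSP90AA1, above 0, and of HSPB1, below it, also exclude 0, but their adjusted p did not pass. HSPA1A has the widest interval, from −0.26 to 0.78.

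HSF1 lies at chr8:144291591-144314722 on the plus strand (GRCh38, GENCODE v29). It was measured at 86.0, 85.8 and 84.5 CPM in the DMSO libraries. The ZW27941 libraries gave 90.7, 88.2 and 92.9 CPM. All 3 treated libraries were above all 3 controls, with a gap smaller than the range of the treated group. Its log2 fold change was 0.084 (95% confidence interval 0.030 to 0.14), with an adjusted p of 0.0177 by edgeR's quasi-likelihood test. This call rested on the scaling and on single libraries. The log2 fold change was 0.061 (adjusted p = 0.0862, edgeR) with upper quartile normalization, 0.077 (adjusted p = 0.0783, edgeR) without DMSO replicate 3 and 0.063 (adjusted p = 0.0661, edgeR) without ZW27941 replicate 3. In these bulk libraries, a change in the number of cells that express a gene and a change in RNA per cell cannot be told apart. HSF1 activity is set largely on the protein, by release from chaperones and by phosphorylation, and was not measured by these counts.

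HSPA8, the constitutive cytosolic HSP70 (chr11:123057489-123063230, minus strand), was at 961, 935 and 930 CPM in DMSO and at 1023, 1047 and 1064 CPM on ZW27941. The lowest treated library was 1023 CPM and the highest control 961 CPM, so the groups did not overlap. On the log2 scale the fold change was 0.15 (standard error 0.026, 95% confidence interval 0.096 to 0.20), with an adjusted p of 1.24e-04 by edgeR. HSPA8 also holds the snoRNA genes SNORD14C and SNORD14D in its exons as annotated, over 88 and 87 of 4849 exon bases. Its 17 pseudogenes in the count data held 0.102% to 0.155% as many counts as HSPA8 itself.

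HSPH1, also called HSP110, is a nucleotide exchange factor that resets HSP70 and helps it to break up aggregates (chr13:31134974-31162388, minus strand). Its values were 214, 207 and 206 CPM in DMSO and 240, 240 and 242 CPM on ZW27941. The treated libraries were nearly equal, with an SD of 0.875 CPM against 4.59 CPM in the controls. Its log2 fold change of 0.20 (standard error 0.024, 95% confidence interval 0.15 to 0.25; edgeR adjusted p = 1.76e-06) had the lowest p of the 10 genes.

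DNAJB1, the J-domain protein HSP40 that delivers clients to HSP70 (chr19:14514770-14529770, minus strand), gave 60.7, 61.4 and 61.7 CPM in DMSO and 67.2, 67.8 and 65.1 CPM on ZW27941. The treatments did not overlap, and ZW27941 replicate 3 was the nearest to the controls. Its log2 fold change was 0.12 (95% confidence interval 0.067 to 0.18), with an adjusted p of 0.00126 by edgeR. BAG3 joins HSP70 to small heat shock proteins and directs clients to autophagy (chr10:119651370-119677819, plus strand). It gave 17.0, 16.2 and 17.2 CPM in DMSO and 19.0, 19.3 and 18.4 CPM on ZW27941, again without overlap and with ZW27941 replicate 3 the lowest of its group. The log2 fold change was 0.17 (95% confidence interval 0.098 to 0.25; edgeR adjusted p = 9.63e-04). DNAJB1, BAG3, HSPA8 and HSPH1 stayed past the threshold under every alternative normalization, test and filter that was run, and with any 1 library left out.

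The stress-inducible HSP70 genes HSPA1A and HSPA1B lie close together on chromosome 6 (chr6:31815464-31817946 and chr6:31827735-31830255, plus strand) and encode near-identical proteins. HSPA1B was at 12.2, 12.2 and 11.6 CPM in DMSO and at 12.5, 13 and 13 CPM on ZW27941. All treated values lay above the controls, but the log2 fold change of 0.097 (95% confidence interval 0.0076 to 0.19) had an adjusted p of 0.0958 by edgeR and did not pass. HSPA1A was counted only 29, 37 and 27 times in the DMSO libraries and 48, 32 and 41 times on ZW27941. At these counts its groups overlapped. A log2 fold change from −0.26 to 0.78 lies within the 95% confidence interval (estimate 0.26, edgeR adjusted p = 0.481). The counts of the pair are uncertain, because 67.1% of the 150-base windows of the HSPA1A transcript and 70% of those of HSPA1B occur exactly in another gene, while 32.9% and 30% do not. For the other 8 genes 0 windows were shared. AL671762.1, counted here as another gene, shares 920 exon bases with HSPA1B on the same strand and is not in the count data. Reads were paired, and the mate of a read can also place it, so these shares are not those of unassigned reads. With the counts of HSPA1A and HSPA1B added together, the level was 11.8 to 12.5 CPM in DMSO and 12.7 to 13.3 CPM on ZW27941. The sum did not overlap between treatments, and its log2 fold change was 0.099 (standard error 0.043; edgeR adjusted p = 0.0834).

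HSP90AA1, the stress-responsive HSP90 isoform (chr14:102080738-102139699, minus strand), gave 906, 887 and 879 CPM in DMSO and 914, 921 and 955 CPM on ZW27941. The groups did not overlap by a narrow margin, and ZW27941 replicate 3 was the highest library. The log2 fold change of 0.062 (95% confidence interval 0.0084 to 0.12) had an adjusted p of 0.0751 by edgeR. It passed the threshold with scaling by library size only (0.072; edgeR adjusted p = 0.0306) and with no filter on low counts (0.068; edgeR adjusted p = 0.0494). HSP90AB1, the constitutive isoform (chr6:44246166-44253888, plus strand), gave 2390, 2397 and 2364 CPM in DMSO and 2279, 2301 and 2347 CPM on ZW27941. It was the only one of the 10 genes with all treated libraries below all controls. On the log2 scale the fold change was −0.046 (95% confidence interval −0.098 to 0.0064; edgeR adjusted p = 0.184). It passed as lower with upper quartile normalization (−0.069; edgeR adjusted p = 0.0446) and without ZW27941 replicate 3 (−0.060; edgeR adjusted p = 0.0435).

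HSPB1, also known as HSP27 (chr7:76302544-76304295, plus strand), gave 123, 119 and 122 CPM in DMSO and 115, 113 and 120 CPM on ZW27941. ZW27941 replicate 3 fell within the range of the controls, and the other 2 treated libraries were below it. Its log2 fold change was −0.069 (95% confidence interval −0.12 to −0.013), with an adjusted p of 0.0563 by edgeR. It passed as lower without ZW27941 replicate 3 (−0.097; edgeR adjusted p = 0.00359), with upper quartile normalization (−0.092; edgeR adjusted p = 0.0120), with RLE normalization (−0.073; edgeR adjusted p = 0.0463), with a minimum of 10 counts in every library (−0.071; edgeR adjusted p = 0.0464) and by DESeq2 (−0.073; adjusted p = 0.0390).

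Summed by role, the HSP70 group (HSPA8, HSPA1A, HSPA1B, HSPH1, DNAJB1 and BAG3) came to 1266, 1233 and 1227 CPM in DMSO and 1362, 1388 and 1403 CPM on ZW27941, a mean higher by 11.5%. The HSP90 pair came to 3274 ± 28.0 CPM in DMSO and 3239 ± 56.7 CPM on ZW27941 (SD, n = 3), so its means differed by less than the SD of the treated group. These sums are led by HSPA8 and HSP90AB1 and were not tested. The 10 genes together took 0.465% to 0.477% of the gene counts in DMSO and 0.48% to 0.49% on ZW27941.

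Ratios of counts within a library do not depend on the scaling, and 6 were compared by exact permutation of the library labels, two-sided. With 3 libraries against 3 the smallest p such a test can give is 0.1, so none could pass 0.05. The ratio of HSP90AA1 to HSP90AB1 was 0.379, 0.370 and 0.372 in DMSO and 0.401, 0.400 and 0.407 on ZW27941. The treated ratios were all higher, by 0.11 on the log2 scale (exact permutation p = 0.1, adjusted over the 6 ratios 0.15). That of HSPA8 to HSP90AB1, each with its pseudogenes added, was 0.402, 0.390 and 0.393 in DMSO and 0.449, 0.454 and 0.453 on ZW27941, higher by 0.19 on the log2 scale (exact permutation p = 0.1, adjusted 0.15). These ratios give the balance between paralogs or between HSP70 and HSP90 transcripts. Both were higher in all treated libraries than in any control, a description that this test could not bring past 0.05.

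Within the HSP70 group, the ratio of HSPH1 to HSPA8 was 0.223, 0.222 and 0.221 in DMSO and 0.234, 0.230 and 0.227 on ZW27941 (log2 difference 0.054, exact permutation p = 0.1, adjusted 0.15). The ratio of HSPA1A plus HSPA1B to HSPA8 was 0.0129, 0.0134 and 0.0126 in DMSO and 0.0124, 0.0126 and 0.0125 on ZW27941 (log2 difference −0.049, exact permutation p = 0.1, adjusted 0.15). The HSPH1 ratio was higher in all treated libraries than in any control. For the inducible pair the groups met at 0.0126, and the difference was about the size of the SD of the DMSO libraries on the log2 scale, 0.041, so no direction is read from it. The ratios of BAG3 to HSPA8 (exact permutation p = 0.5, adjusted 0.50) and of HSPA1A to HSPA1B (exact permutation p = 0.3, adjusted 0.36) overlapped.

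**Figure D3:**
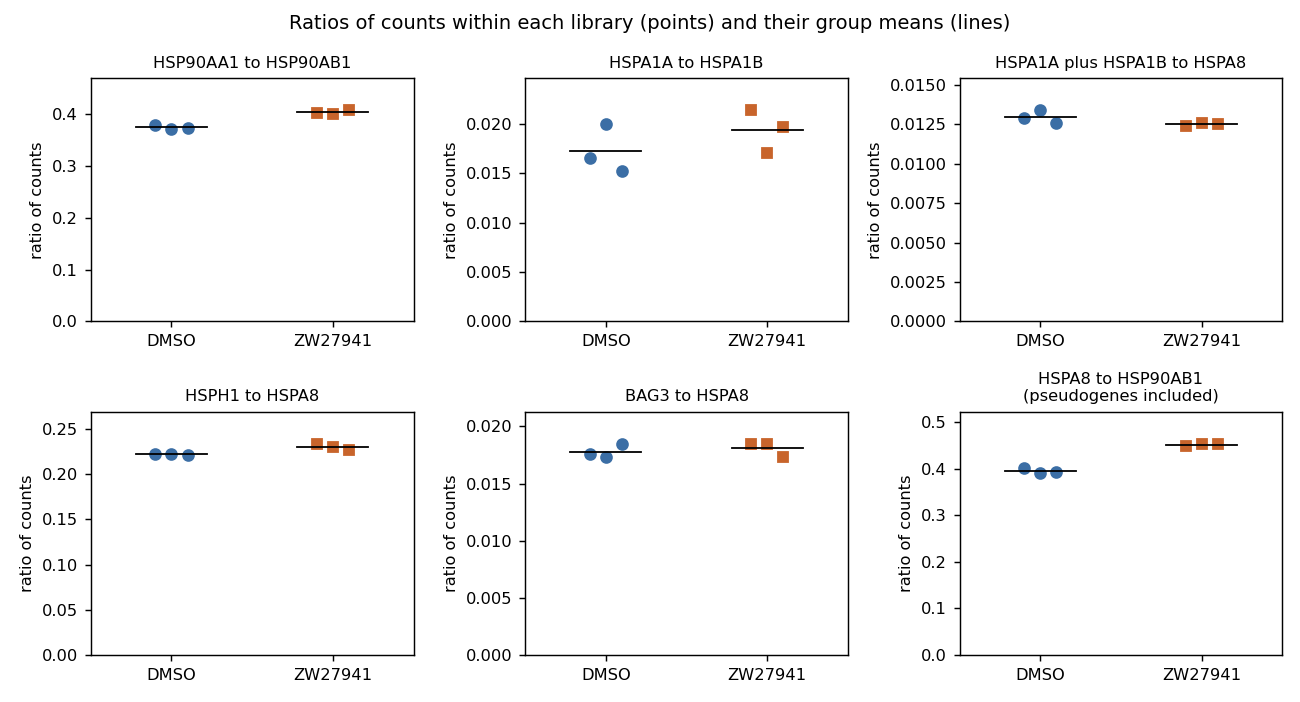
Ratio of the counts of genes within each library, on axes that start at 0, with circles for DMSO and squares for ZW27941 and a line at each group mean (n = 3 per group). The HSPA8 to HSP90AB1 ratio lies between 0.390 and 0.402 in DMSO and between 0.449 and 0.454 on ZW27941, and the BAG3 to HSPA8 and HSPA1A to HSPA1B ratios overlap.

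Levels were compared between genes per kilobase of exon. HSP90AB1 was the most abundant, at 800 ± 5.81 CPM per kb in DMSO (SD, n = 3), and HSPA8 followed at 194 ± 3.44, HSP90AA1 at 170 ± 2.65 and HSPB1 at 74.3 ± 1.17 CPM per kb. HSPH1 was at 24.9 ± 0.547 CPM per kb. DNAJB1, at 16.5 to 18.5 CPM per kb over the 6 libraries, and HSF1, at 15.9 to 17.5 CPM per kb, were the only neighbours in this order whose ranges over all libraries overlapped. Below them lay BAG3 at 6.10 ± 0.195, HSPA1B at 4.76 ± 0.143 and HSPA1A at 0.0838 ± 0.0140 CPM per kb. All 10 ranks were the same when the longest transcript was used as the length. The places of HSPA1A and HSPA1B depend on how their shared sequence is treated. With the length cut to the share of 150-base windows found in no other gene, an alternative chosen after the values were seen, HSPA1B stood at 15.9 ± 0.479 CPM per kb in DMSO (SD, n = 3). Its 15.3 to 17.3 CPM per kb over the 6 libraries then lay above BAG3 and overlapped HSF1 and DNAJB1, while HSPA1A, at 0.255 ± 0.0425 CPM per kb, remained last.

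**Figure D4:**
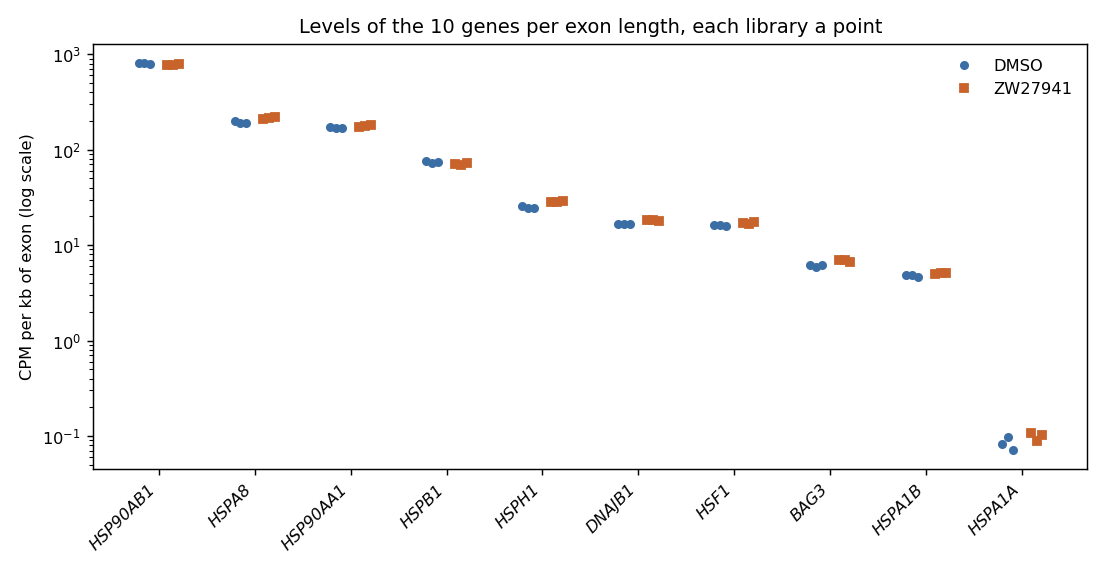
Level of each gene in each library in CPM per kilobase of full exon length on a logarithmic axis, genes in order of level, with circles for DMSO and squares for ZW27941. The genes run from HSP90AB1, at 765 to 804 CPM per kb, to HSPA1A, at 0.0711 to 0.107 CPM per kb, and the neighbours DNAJB1 and HSF1 overlap.

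Among 88 other genes of the chaperone network, arranged in lists by function, 79 were tested. Of these, 19 rose and 14 fell, with a median log2 fold change of −0.011, and with upper quartile normalization 15 rose and 21 fell. The shares, 24.1% and 17.7%, stood beside 16.3% and 13.8% of all genes tested, which were not matched to the lists for level. Of the HSF family, HSF2 was at 34.0 ± 0.563 CPM in DMSO and 32.4 ± 0.730 CPM on ZW27941 and HSF4 at 17.3 ± 0.647 and 16.2 ± 1.38 CPM (SD, n = 3). Neither passed the test, and HSF5 was below the filter. With upper quartile normalization, and without ZW27941 replicate 3, 1 gene of the family fell. Among 9 regulators of HSF1, 2 rose and 1 fell. PLK1 and MAPKAPK2, kinases known to phosphorylate HSF1, had log2 fold changes of 0.17 and 0.088, and HDAC6, a deacetylase that binds ubiquitinated aggregates, fell by 0.20 on the log2 scale.

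The partners of HSP70 moved in both directions. Of 8 cofactors, 3 rose and 4 fell. With RLE normalization, with upper quartile normalization or by DESeq2, 2 rose and 4 fell. The exchange factors BAG2 and BAG5 rose by 0.14 and 0.17 on the log2 scale, whereas BAG6, which handles mislocalized membrane proteins, and the exchange factor HSPBP1 each had a log2 fold change of −0.21. Of 11 cytosolic J-domain genes tested besides DNAJB1, 4 rose and 2 fell. DNAJB6, a suppressor of protein aggregation, went from 89.1 ± 1.13 to 110 ± 1.51 CPM (SD, n = 3; log2 fold change 0.31), and DNAJC9, a histone chaperone, from 67.6 ± 0.918 to 82.5 ± 2.63 CPM (0.29). DNAJC2, which works at the ribosome, and DNAJC7, which binds HSP70 and HSP90, had log2 fold changes of −0.18 and −0.095. Of the other cytosolic HSP70 genes, 0 of 6 tested were called in either direction by edgeR or DESeq2, and 1 was higher at an unadjusted p under 0.05. With scaling by library size only 1 was called higher, and without DMSO replicate 2, 1 was called lower. HSPA6, the most strictly heat-inducible HSP70, was at 2.26 ± 0.239 CPM in DMSO and 1.98 ± 0.0734 CPM on ZW27941 (SD, n = 3).

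Of 17 HSP90 cochaperones, 3 rose and 5 fell. FKBP5 and AHSA1, the activator of the HSP90 ATPase, rose by 0.18 and 0.15 on the log2 scale. SUGT1, an adaptor for HSP90 clients, and FKBP4 had log2 fold changes of −0.18 and −0.13. FKBP5 and FKBP4, immunophilins of the steroid receptor complex with opposed effects on the receptor, thus moved in opposite directions. The count of fallers was 3 without DMSO replicate 2, without ZW27941 replicate 1 or without ZW27941 replicate 2, and 8 without ZW27941 replicate 3. Of 4 small heat shock protein genes tested, 0 were called by edgeR or DESeq2 and 0 had an unadjusted p under 0.05. Without ZW27941 replicate 3, 1 was called lower. HSPB8, the small heat shock protein that BAG3 is known to bind, had no count in any library, which allows up to 0.0209 CPM (3 counts, counting error only).

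A list of 20 other known HSF1 targets overlapped some lists above. Of its 19 genes tested, 5 rose and 1 fell, 26.3% and 5.26%, with a median log2 fold change of −0.015. With upper quartile normalization 3 rose and 3 fell, 3 rose without DMSO replicate 3 or without ZW27941 replicate 3, and 2 fell by DESeq2, without DMSO replicate 2 or without ZW27941 replicate 3. DNAJA1, a J-domain partner of HSP70, went from 149 ± 3.82 to 173 ± 3.77 CPM (SD, n = 3; log2 fold change 0.21). SERPINH1, the collagen chaperone HSP47, went from 21.5 ± 1.13 to 25.3 ± 0.318 CPM (SD, n = 3; 0.23). The mitochondrial chaperonin genes HSPD1 and HSPE1, HSF1 targets as well, were at 819 ± 7.12 against 817 ± 21.9 CPM and at 24.0 ± 1.36 against 24.4 ± 0.490 CPM (SD, n = 3), and did not pass the test.

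Chaperones of other compartments were counted beside these. Of 8 chaperones of the endoplasmic reticulum, 4 rose and 0 fell by edgeR, with 0 lower at an unadjusted p under 0.05 and 0 lower by DESeq2, and the median log2 fold change was 0.085. DNAJC3 and DNAJB11, J-domain partners of the reticulum's HSP70, had log2 fold changes of 0.14 and 0.16. Of 7 mitochondrial chaperones 1 rose and 2 fell. GRPEL1, the exchange factor of the mitochondrial HSP70, rose by 0.21 on the log2 scale, while TRAP1, the mitochondrial HSP90, and DNAJA3 had log2 fold changes of −0.21 and −0.11.

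**Figure D5:**
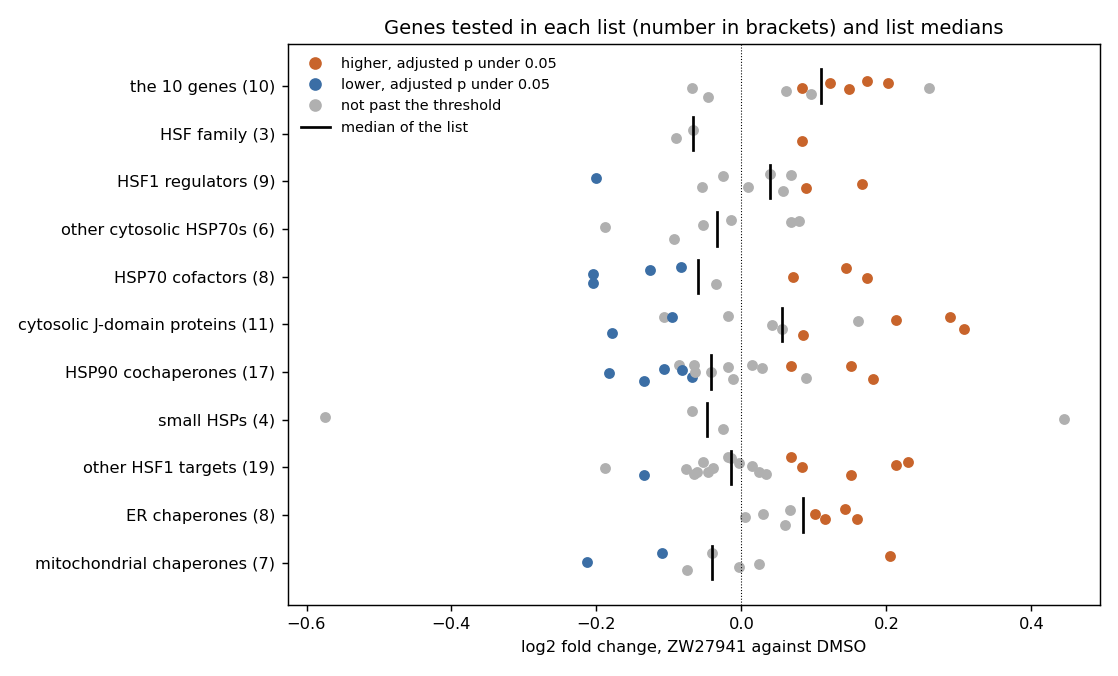
Log2 fold change on ZW27941 against DMSO of each tested gene in each list (number tested in brackets), with colour for an adjusted p under 0.05 and a bar at the list median. The medians run from −0.067 for the HSF family to 0.11 for the 10 genes, and the HSP70 cofactors split into 3 higher and 4 lower genes.

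The genes with a 3-unit heat shock element were set beside those changes. Of the 3 chaperone genes shown above, HSPA8 rose while HSP90AA1 and HSP90AB1 did not pass the test. Among 58 other tested genes with such a promoter, 10 rose (17.2%) and 6 fell (10.3%), near the shares of all genes tested. Of 6 such genes within the chaperone lists, DNAJA1, DNAJB6 and SERPINH1 rose, and HSPA6, CHORDC1 and HSPD1 had log2 fold changes of −0.19, 0.014 and −0.0039 that did not pass. HSPH1 and BAG3, which rose the most among the 5 that passed, had no match to these letters in the window searched.

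Likeness of pattern was measured as the root mean square difference of the log2 CPM, centred on each gene's mean, over the 6 libraries, among 12223 genes whose log2 CPM averaged 1 or more. The genes most like HSF1 were MAPKAPK2 (0.0063), MAP3K11 (0.0096) and RASSF1 (0.010). Those most like HSPH1 were MTFR2 (0.0069), PPP2CA (0.0090) and DLX5 (0.0092). Among the 10 genes themselves HSF1 was nearest to HSP90AA1 (0.020), HSPA8 to HSPH1 (0.030), HSPB1 to HSP90AB1 (0.027) and DNAJB1 to BAG3 (0.039). These are descriptions over 6 libraries that share their depth and treatment.

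Short overlaps with genes on the opposite strand were annotated for HSF1 (139 bases with DGAT1), DNAJB1 (211 bases with TECR) and HSP90AA1 (197 bases with WDR20). The strand setting of the counts is not given in the sources used here, so reads in those bases cannot be assigned to one gene with certainty. The 3 genes have 5307, 3672 and 5248 exon bases, and the share of their reads that fell in the overlaps was not measured. Pseudogenes held at most 0.793% as many counts as their parent gene, with HSP90AA1 the highest.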

How the data were processed

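Total RNA of MOLM13 cells was sequenced in 6 libraries (3 per treatment), and the authors deposited whole-number read counts per gene symbol for each, without normalization. The submitters' processing notes name HISAT2, SAMtools 1.19.2, HTSeq 2.0.3 and hg38. The annotation and the strand setting are not given in the sources used here. Reads that HTSeq gave to no gene (37.4% to 39.8%) were left out. Gene counts ran from 143454176 to 178744976 a library.

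Counts were tested in R 4.3.3 with edgeR 4.0.16 (TMM factors 0.994 to 1.01, filterByExpr, quasi-likelihood test, Benjamini-Hochberg adjustment over 20399 genes, threshold 0.05), with group as the only term. Steps were tested on simulated data. Alternatives were RLE, upper quartile and library size scaling, DESeq2 1.42.0, a likelihood ratio test, other filters, a replicate block and each library left out. Gene positions and exon lengths came from GENCODE v29 on GRCh38, which may differ from the annotation the authors used, and promoters from a RefSeq table. Named genes were the 10 members, up to 2 higher and 2 lower genes with the lowest p in each list, any list gene past the threshold with a log2 change of at least 0.5, and the 3 genes most like HSF1 and HSPH1. HSF2, HSF4, HSPA6, HSPD1, HSPE1, CHORDC1 and HSPB8 were named outside that rule. The members and lists were chosen with earlier results of these data known. Replicates of a group differed beyond sampling noise, so none was treated as a second sequencing of the same library. This does not show that they came from separate cultures.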

Additional observations from a re-analysis of the deposited data

Results flagged for a closer look

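HTSeq's tally of reads aligned to several places, which no comparison used, made up 5.25% of the reads tallied in ZW27941 replicate 3. It was 3.75% to 4.07% in the DMSO libraries and 3.63% and 4% in the other 2 ZW27941 libraries, so this library lay above the controls. Its gene counts also differed most from those of its group (chi-square per degree of freedom 11.5 and 7.78, against 4.33 to 5.13 for other same-group pairs). Without this library 6134 genes were called, against 4836 to 5196 with another library left out in its place. Without it HSF1 did not pass the threshold, and HSPB1 and HSP90AB1 passed as lower. Whether these reads, or the difference in gene counts, bear on those calls was not tested.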

How the results depend on the processing

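Of 948 values under alternative settings, 910 kept their direction and their side of the threshold (counts, within 1.5 times), 3 lost and 9 gained the threshold, 26 moved and 0 reversed. The 22 named pathway genes kept theirs in 308 of 308 values. The number of the 10 genes called lower, 0, was 1 with RLE normalization, 2 with upper quartile normalization, 1 by DESeq2 and 1 with a minimum of 10 counts in every library, and ran from 0 to 2 with 1 library left out. The number called higher, 5, ran from 4 to 6 over the other settings and from 4 to 5 with 1 library left out. With a single inverted pair in place of 3 units, 7 of the genes had a promoter with an element in place of 3. With length cut to sequence of no other gene (chosen after seeing the data), 8 of the 10 genes kept their rank by level, as HSPA1B and BAG3 changed places. The cause of these shifts was not tested. With upper quartile normalization the median log2 fold change of all genes was −0.025. The replicate numbers were not shown to pair the libraries, since deviations of same-numbered libraries correlated at 0.028, −0.057 and 0.051. With the replicate block 6010 genes were called (6149 without), with 5 of the 10 genes higher and 0 lower. HSPA1A was limited by its low count, 27 to 48 a library, the cause of which was not tested. Of the 88 other chaperone genes, 9 were too low to test.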

Other observations

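HSPA7, an HSP70 pseudogene on chromosome 1 (chr1:161606291-161608217, plus strand, GRCh38) that belonged to no list and was chosen after its values were seen, was at 199, 213 and 210 CPM in DMSO and at 167, 172 and 172 CPM on ZW27941. All treated libraries were below all controls, and the log2 fold change was −0.29 (95% confidence interval −0.34 to −0.23; edgeR adjusted p = 8.22e-08). Its level was far above that of HSPA6, the related gene nearby, which was at 1.90 to 2.45 CPM over the 6 libraries. How reads were shared between HSPA7 and HSPA6 was not tested.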
